A study of Mus musculus with 8 samples.

Results

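The genes described here encode Toll-like receptors and the proteins that hand lipopolysaccharide (LPS) to them. They are the 10 rows of the deposited count table whose symbol is Tlr1, Tlr2, Tlr3, Tlr4, Tlr6, Tlr7, Tlr9, Tlr13, Cd14 or Ly96, out of 17823 genes in all, and all 10 passed the filter on low counts. RNA sequencing was carried out on C57BL/6 bone-marrow-derived macrophages, grown for 7 days with M-CSF (20 ng), exposed to 1 µg/ml of Escherichia coli LPS, and carrying tdTomato (tdT) as a reporter for Il19, which encodes a cytokine of the Il10 family. The study compared 4 libraries of tdT-positive with 4 of tdT-negative macrophages, numbered 1 to 4 in each group. Both groups share strain, growth factor and LPS, so every level below is a level in LPS-treated cells. No untreated library, duration of the LPS treatment or method of separating the positive from the negative cells is given in the sources used here. The reporter is read here as a mark of Il19 transcription, not of a lineage. The question asked of these genes was whether macrophages with and without Il19 reporter activity differ in their receptors for LPS and other microbial products.

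Toll-like receptors recognise microbial molecules and signal through adaptor proteins to NF-kB, MAP kinases and interferon regulatory factors. Tlr4 is the receptor for LPS: the membrane-anchored protein Cd14 takes up LPS and passes it to MD-2, the product of Ly96, which binds LPS in a complex with Tlr4. At the cell surface Tlr2 pairs with Tlr1 or Tlr6 to detect bacterial lipopeptides, whereas Tlr3, Tlr7, Tlr9 and Tlr13 detect nucleic acids in endosomes. Macrophages express most of these receptors, and LPS itself changes the transcript levels of several of them.

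None of the 10 genes differed between tdT-positive and tdT-negative macrophages at an adjusted p under 0.05 (edgeR quasi-likelihood test, Benjamini-Hochberg adjustment over 12610 genes), and none had an unadjusted p under 0.05. The background of that fit is low, with 0.0238% of all genes tested, 3 in number, passing the adjusted threshold (0.00793% higher and 0.0159% lower in tdT-positive libraries) and 16.3% under an unadjusted p of 0.05. With the replicate number as a block, a term that compares libraries of the same number, again none of the 10 passed the adjusted threshold, beside 15.8% of all genes, 8.03% higher and 7.81% lower in tdT-positive libraries. In that fit Tlr2, Cd14 and Tlr6 had an unadjusted p under 0.05, as did 32.7% of all genes. Log2 fold changes of tdT-positive over tdT-negative libraries lay between -0.26 and 0.22 without the block and between -0.27 and 0.23 with it, with medians of 0.04 and 0.05, against -0.0002 and 0.0051 over all genes. Il19, whose reporter defines the groups, averaged 185 ± 36.6 CPM (read counts scaled to a common library size) in tdT-positive libraries, against 12 ± 3.45 CPM in tdT-negative libraries (SD, n = 4 each). In bulk RNA, fewer cells of a type and less RNA per cell cannot be told apart.

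Absence of a call is not evidence of equal levels, so the 95% interval of each difference was taken from the same fits. Without the block, the intervals of all 10 genes lay within a 2-fold difference either way, and those of 7 lay within 1.5-fold, as did 54.5% of all genes tested. The exceptions to 1.5-fold were Tlr2, Tlr3 and Tlr9, and the outermost bounds were 0.518-fold, for Tlr2, and 1.99-fold, for Tlr9. With the block, all 10 intervals lay within 1.5-fold, as did 70.5% of all genes, with outermost bounds of 0.726-fold for Tlr2 and 1.47-fold for Tlr9. The blocked intervals of Tlr2 and Cd14 lay below equality and that of Tlr6 above it, and these 3 are not adjusted for the number of genes.

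**Figure D1:**
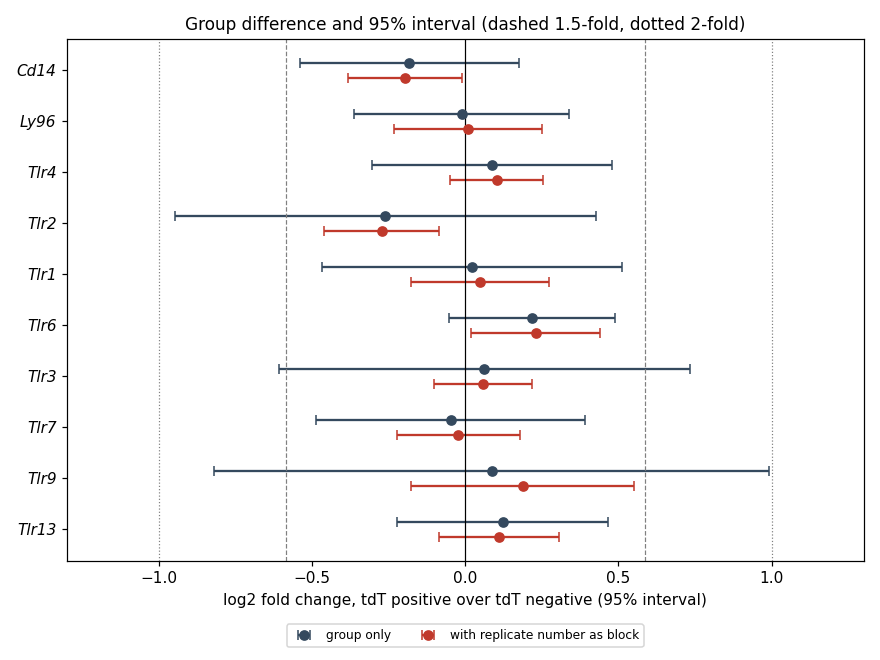
Log2 fold change of tdT-positive over tdT-negative libraries (horizontal axis) with its 95% interval for the 10 genes, from edgeR without and with the replicate number as a block; dashed lines mark 1.5-fold and dotted lines 2-fold either way. The blocked intervals, in red, lie between -0.46 and 0.55, and the unblocked ones between -0.95 and 0.99.

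Tlr1 and Tlr6, neighbours on the minus strand of chromosome 5, share coding sequence, which bears on how their reads could be counted. Of the 75-base words in their annotated transcripts, 10.3% of those of Tlr1 and 9.25% of those of Tlr6 occur in the other gene. Counting all 12 annotated genes that share a word with Tlr1, Tlr6 included, the share for Tlr1 is 10.6%. The other 8 genes share no such word with any other annotated gene. The stretch shown, 300 bases of a coding exon of each gene on GRCm38 (GENCODE vM21 transcripts), is where the overlap is longest, with 229 identical bases in a row. It spans chr5:64925501-64925800 in Tlr1 and chr5:64953792-64954091 in Tlr6, and capitals mark the 2 positions of this stretch at which the genes differ.
Tlr1: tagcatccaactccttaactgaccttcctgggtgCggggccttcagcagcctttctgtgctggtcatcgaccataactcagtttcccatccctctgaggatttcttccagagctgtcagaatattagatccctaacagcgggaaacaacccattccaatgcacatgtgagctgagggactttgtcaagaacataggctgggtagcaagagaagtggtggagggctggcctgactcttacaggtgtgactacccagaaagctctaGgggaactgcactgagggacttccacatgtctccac
Tlr6: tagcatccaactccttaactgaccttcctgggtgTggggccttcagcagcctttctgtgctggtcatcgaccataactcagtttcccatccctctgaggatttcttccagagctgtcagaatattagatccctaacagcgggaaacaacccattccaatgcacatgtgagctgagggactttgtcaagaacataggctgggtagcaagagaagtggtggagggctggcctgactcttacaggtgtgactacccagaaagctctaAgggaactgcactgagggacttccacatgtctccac
A read that falls wholly between the capitals cannot be assigned to either gene. Neither the read length nor the handling of such reads is known from the labels, and the counts of Tlr1 and Tlr6 are uncertain to that extent.

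None of the 3 genes of LPS recognition passed the test, and the interval of Tlr4 was the narrowest of the 3 with the block. Tlr4, the signalling receptor (Entrez 21898, chromosome 4, 66827551 to 66846581, plus strand, coordinates of GRCm38.p6) had 69.8, 66.6, 93.0 and 73.2 CPM in tdT-positive replicates 1 to 4, against 62.5, 55.9, 93.9 and 72.5 CPM in tdT-negative replicates 1 to 4. The groups overlapped, and number 3 was the highest in both. The log2 fold change was 0.09 (SE 0.17, adjusted p = 0.866, edgeR), with a 95% interval from 0.810-fold to 1.39-fold, and with the block it was 0.10 (SE 0.06, adjusted p = 0.314), from 0.966-fold to 1.19-fold. An exact two-sided permutation test of log2 CPM over the 70 ways of dividing the libraries 4 against 4 gave p = 0.600. tdT-positive libraries were higher in 3 of 4 numbers.

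Ly96, which encodes the LPS-binding subunit of the Tlr4 complex (Entrez 17087, chromosome 1, 16688456 to 16709605, plus strand), had 27.4, 22.9, 24.7 and 22.6 CPM in tdT-positive replicates 1 to 4, against 27.0, 24.2, 29.5 and 17.6 CPM in tdT-negative replicates 1 to 4. All 4 tdT-positive values lay inside the tdT-negative range. Its log2 fold change was -0.01 (SE 0.15, adjusted p = 0.983, edgeR), with an interval from 0.778-fold to 1.26-fold, and the blocked interval ran from 0.852-fold to 1.19-fold. The sign of a difference this close to 0 turned with the block, where it was 0.01.

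Cd14, which encodes the LPS-carrying co-receptor (Entrez 12475, chromosome 18, 36725064 to 36726815, minus strand), was the most abundant of the 10 transcripts by a wide margin. It had 1165, 1162, 1386 and 1697 CPM in tdT-positive replicates 1 to 4, against 1401, 1451, 1577 and 1713 CPM in tdT-negative replicates 1 to 4. The groups overlapped, although in each of the 4 numbers the tdT-positive library was the lower one, as it was for 19.6% of all genes tested (41.5% went the same way, up or down, in all 4 numbers). The tdT-positive over tdT-negative ratio was 0.831, 0.801, 0.879 and 0.990 in numbers 1 to 4, so number 4 hardly differed. The log2 fold change was -0.18 (SE 0.16, adjusted p = 0.638, edgeR), with an interval from 0.688-fold to 1.13-fold, and an exact permutation test gave p = 0.200. With the block it was -0.20 (SE 0.08, adjusted p = 0.137), with an interval from 0.767-fold to 0.993-fold.

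Scaling and tool decided whether the blocked differences of Cd14 and Tlr2 passed. When libraries were scaled by their totals alone, both passed with the block (edgeR, adjusted p = 0.0388 for Cd14 and 0.0287 for Tlr2), in a fit in which 11.2% of all genes passed and the median of all genes was -0.07 on the log2 scale. They also passed with the block in the Wald test of DESeq2 (adjusted p = 0.0204 for Cd14 and 0.00681 for Tlr2), beside 19.9% of all genes. Under upper-quartile scaling with the block Tlr2 passed (edgeR, adjusted p = 0.033) and Cd14 did not (adjusted p = 0.0686).

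Tlr2, the lipopeptide receptor subunit common to both surface pairs (Entrez 24088, chromosome 3, 83836272 to 83841824, minus strand), showed the largest fitted difference of the 10 genes. It had 110, 137, 257 and 164 CPM in tdT-positive replicates 1 to 4, against 158, 159, 309 and 175 CPM in tdT-negative replicates 1 to 4. The groups overlapped, and number 3 stood well above the rest in both. Within each number the tdT-positive library was the lower one, by ratios of 0.696, 0.861, 0.832 and 0.939. The log2 fold change was -0.26 (SE 0.30, adjusted p = 0.746, edgeR), with an interval from 0.518-fold to 1.34-fold, and the exact permutation test gave p = 0.486. With the block it was -0.27 (SE 0.08, adjusted p = 0.0604), with an interval from 0.726-fold to 0.943-fold. Without tdT-negative replicate 3 the unblocked value was 0.03 (adjusted p = 0.978). In the blocked fit without numbers 1, 2, 3 and 4 in turn the value was -0.18, -0.30, -0.28 and -0.32, with an adjusted p of 0.204, 0.137, 0.115 and 0.0216 (edgeR), so the gene passed when number 4 was left out, as did 20.2% of all genes.

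Tlr6, the partner of Tlr2 for diacylated lipopeptides (Entrez 21899, chromosome 5, 64953092 to 64970942, minus strand), was the single gene of the 10 whose groups did not overlap, as was true of 11.4% of all genes tested. It had 47.7, 46.7, 52.5 and 47.0 CPM in tdT-positive replicates 1 to 4, against 46.4, 42.9, 45.4 and 32.1 CPM in tdT-negative replicates 1 to 4. The gap between the groups was narrow, and tdT-negative replicate 4 lay furthest from the others. That library also stood apart in markers of other cells, with 857 CPM of the stromal gene Col1a1 and 874 CPM of the osteoclast gene Acp5, against 79.1 to 186 and 67.5 to 119 CPM in tdT-negative replicates 1 to 3, and the part of these cells in the Tlr6 value was not tested. Fitted over all libraries, the log2 fold change was 0.22 (SE 0.12, adjusted p = 0.422, edgeR), with an interval from 0.963-fold to 1.40-fold, and the exact permutation test gave p = 0.0286, the smallest the design allows and unadjusted for the 10 genes. With the block it was 0.23 (SE 0.09, adjusted p = 0.126), with an interval from 1.01-fold to 1.36-fold, and without number 4 the blocked value was 0.14 (adjusted p = 0.181). Without tdT-negative replicate 4 alone, the unblocked value was 0.11 (adjusted p = 0.553, edgeR). The ratio was 1.03, 1.09, 1.16 and 1.46 in numbers 1 to 4, above 1 in each, as for 21.9% of all genes.

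Tlr1, the partner of Tlr2 for triacylated lipopeptides (Entrez 21897, chromosome 5, 64924680 to 64933600, minus strand), had 228, 222, 156 and 171 CPM in tdT-positive replicates 1 to 4, against 249, 220, 167 and 129 CPM in tdT-negative replicates 1 to 4. The groups overlapped, with numbers 1 and 2 high and 3 and 4 low in both. Its log2 fold change was 0.02 (SE 0.22, adjusted p = 0.977, edgeR), with an interval from 0.723-fold to 1.43-fold, and with the block the interval ran from 0.885-fold to 1.21-fold. The sign of the unblocked value turned when libraries were scaled by totals (-0.03) or by upper quartiles (-0.01).

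**Figure D2:**
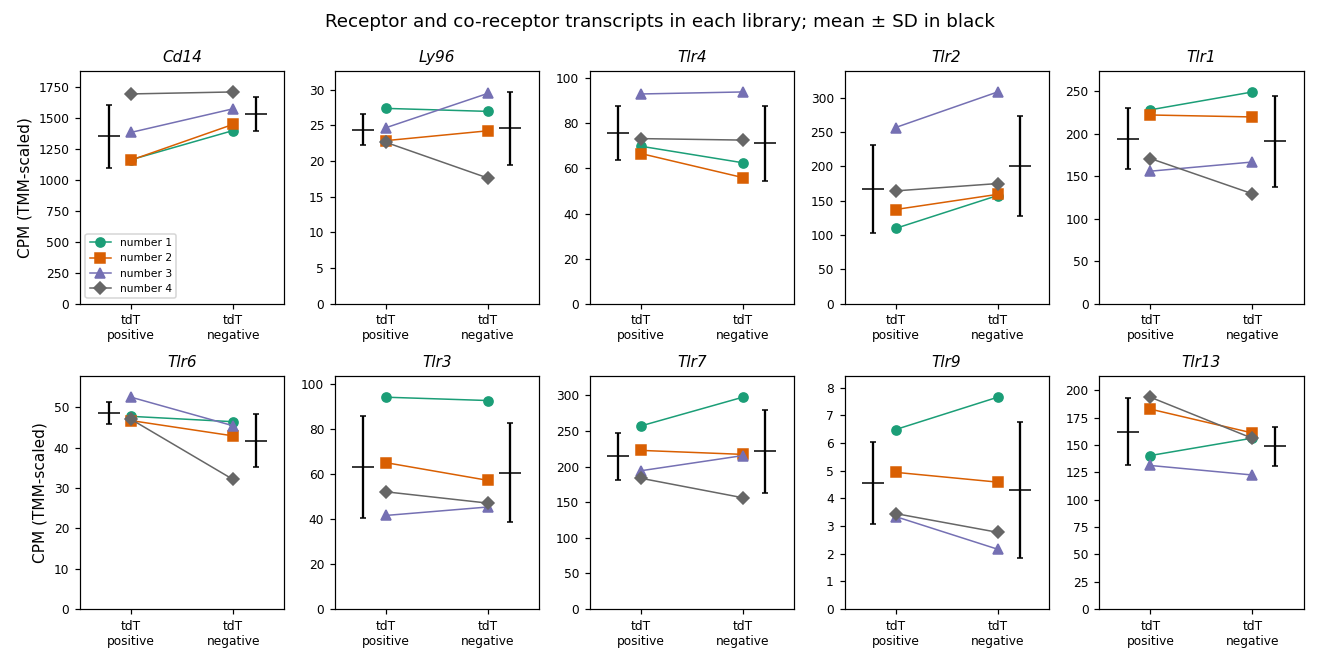
TMM-scaled CPM of the 10 genes (vertical axis of each panel, from 0) in tdT-positive and tdT-negative libraries; lines join libraries of the same replicate number, and black bars give mean ± SD of each group (n = 4). In the Cd14 and Tlr2 panels all 4 lines slope up toward the tdT-negative side, and in the Tlr6 panel all 4 slope down.

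None of the 4 endosomal receptor genes passed the test, and their groups overlapped. Tlr3, a receptor for double-stranded RNA (Entrez 142980, chromosome 8, 45395665 to 45411075, minus strand), had 94.1, 65.0, 41.6 and 52.1 CPM in tdT-positive replicates 1 to 4, against 92.6, 57.2, 45.3 and 47.0 CPM in tdT-negative replicates 1 to 4. In both groups number 1 was the highest and number 3 the lowest. The log2 fold change was 0.06 (SE 0.30, adjusted p = 0.948, edgeR), with an interval from 0.656-fold to 1.66-fold, and with the block the interval narrowed to between 0.932-fold and 1.16-fold. Its exons overlap 1 annotated antisense gene, Gm45542, and without the strand setting of the counting, reads from that gene cannot be told apart.

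Tlr7, a receptor for single-stranded RNA (Entrez 170743, chromosome X, 167303380 to 167330574, minus strand), had 257, 223, 194 and 184 CPM in tdT-positive replicates 1 to 4, against 298, 217, 216 and 156 CPM in tdT-negative replicates 1 to 4. The tdT-positive values all lay inside the tdT-negative range. Its log2 fold change was -0.05 (SE 0.19, adjusted p = 0.940, edgeR), with an interval from 0.714-fold to 1.31-fold, or from 0.857-fold to 1.13-fold with the block.

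Tlr9, a receptor for unmethylated CpG DNA (Entrez 81897, chromosome 9, 106222598 to 106226876, plus strand), was the least abundant of the 10 genes, with deposited counts of 338, 287, 144 and 211 in the tdT-positive libraries of numbers 1 to 4, against 411, 273, 120 and 164 in tdT-negative replicates 1 to 4. These correspond to 6.48, 4.94, 3.34 and 3.45 CPM in tdT-positive libraries and 7.65, 4.58, 2.16 and 2.77 CPM in tdT-negative ones. The groups overlapped, and number 1 was the highest in both. Its log2 fold change was 0.09 (SE 0.40, adjusted p = 0.946, edgeR), and its interval, from 0.566-fold to 1.99-fold, was the widest of the 10. With the block the value was 0.19 (SE 0.16, adjusted p = 0.442), with an interval from 0.885-fold to 1.47-fold, and the blocked value ranged from 0.05 without number 3 to 0.35 without number 1.

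Tlr13, which in mice detects bacterial ribosomal RNA (Entrez 279572, chromosome X, 106143275 to 106160493, plus strand), had 140, 183, 131 and 194 CPM in tdT-positive replicates 1 to 4, against 156, 161, 122 and 156 CPM in tdT-negative replicates 1 to 4. The groups overlapped, and tdT-negative replicate 3 lay far below the other tdT-negative libraries. Its log2 fold change was 0.12 (SE 0.15, adjusted p = 0.766, edgeR), with an interval from 0.857-fold to 1.38-fold, or from 0.943-fold to 1.24-fold with the block. Without tdT-positive replicate 4 the value was 0.02, and without tdT-positive replicate 3 it was 0.21.

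Replicate number took a larger share of the variance than reporter status in all 10 genes, as it did in 77.7% of 12541 genes counted in every library. Of the variance of log2 CPM over the 8 libraries, the number took between 40.9% (Tlr6) and 97.5% (Tlr3), with a median of 87.7% over the 10 genes, and the tdT group between 0.0583% (Ly96) and 34.6% (Tlr6), with a median of 3.79%. Over those 12541 genes the medians were 62.4% and 13.9%, and the number, with 3 degrees of freedom against 1 for the group, has more room to take variance. In a test of the number term of the blocked fit, chosen after the data had been seen, 6 of the 10 genes passed (edgeR, adjusted p under 0.05), beside 27.7% of all genes tested. They were Tlr1, Tlr2, Tlr3, Tlr4, Tlr7 and Tlr9. What a number stands for is not given in the labels beyond the word biological replicate.

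The genes did not follow the numbers in the same way. Taking the geometric mean of both libraries of a number, Tlr2 had 132, 148, 281 and 170 CPM in numbers 1 to 4, so that number 3 exceeded number 1 by 2.14-fold (adjusted p = 0.00323 for the number term, edgeR). Tlr4 was also highest in number 3, with 66.1, 61.0, 93.4 and 72.9 CPM. The endosomal receptor genes Tlr3 and Tlr9 were instead highest in number 1 and lowest in number 3. Tlr3 had 93.4, 61.0, 43.4 and 49.5 CPM in numbers 1 to 4, 2.15-fold more in number 1 than in number 3 (adjusted p = 0.00194), and Tlr9 had 7.04, 4.76, 2.69 and 3.09 CPM, a 2.62-fold range. Tlr7 and Tlr1 were both highest in number 1 and lowest in number 4, by 1.63-fold and 1.60-fold. Cd14 was highest in number 4, with 1705 CPM against 1277 CPM in number 1, and Tlr6 spanned no more than 1.26-fold between numbers.

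**Figure D3:**
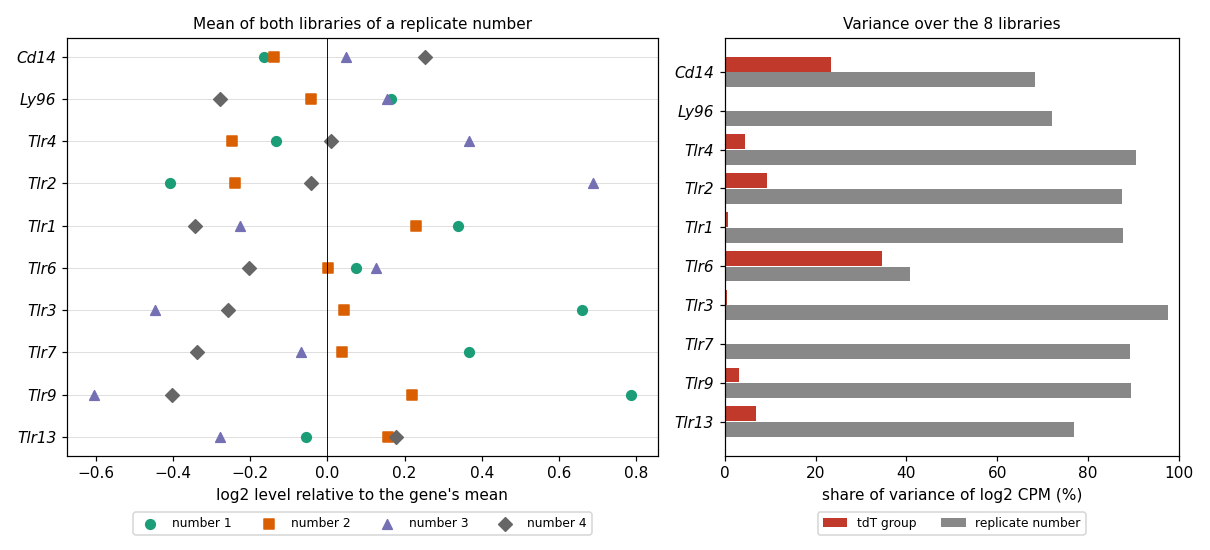
Left, log2 level of each gene in each replicate number, averaged over the tdT-positive and tdT-negative library, relative to the gene's mean; right, percent of the variance of log2 CPM over the 8 libraries taken by the tdT group and by the replicate number. Grey bars exceed red bars for all 10 genes, and Tlr6 has the closest pair, at 34.6% and 40.9%.

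Levels were set against each other per length, as RPKM (CPM per kilobase), with the deposited gene lengths. Cd14 reached 814 ± 152 RPKM in tdT-positive libraries, against 924 ± 84.0 RPKM in tdT-negative libraries (SD, n = 4 each), and its lowest library stood above the highest of every other gene of the family. Tlr2, Tlr1 and Tlr7 followed, at means over the 8 libraries of 64.3, 63.1 and 54.8 RPKM, then Ly96 at 40.6 and Tlr13 at 38.7 RPKM. The ranges of neighbours in this order overlapped, from Tlr2 down to Tlr13, and Tlr2 exceeded Tlr1 in 4 of 8 libraries. Tlr6, Tlr3 and Tlr4 formed a lower tier at 17.3, 14.3 and 9.30 RPKM, again with overlapping ranges. Tlr9 came last, at 1.31 ± 0.426 RPKM in tdT-positive libraries, against 1.24 ± 0.710 RPKM in tdT-negative libraries, with its highest library below the lowest of any other gene.

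The place of Tlr4 and Ly96 in this order depended on the gene length used. The deposited length of Tlr4, 7891 bases, is 1.42 times the 5556 bases of its merged exons in GENCODE vM21, and that of Ly96, 603 bases, is 0.591 times the 1021 bases of its merged exons. With the GENCODE lengths, an alternative added after the data had been seen, Tlr4 averaged 13.2, Tlr6 12.1 and Tlr3 11.9 RPKM, and Ly96 24.0 RPKM. Cd14 was 93.4 times as high as Tlr4 per length with the deposited lengths and 63.1 times with the GENCODE lengths. A gene's length cancels from every comparison between the groups.

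**Figure D4:**
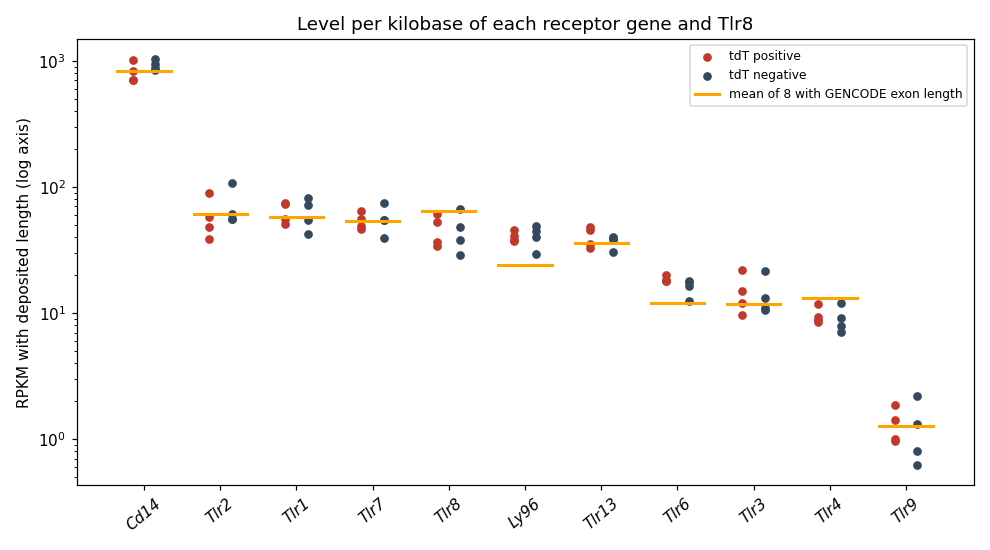
RPKM (log axis) of the 10 genes and Tlr8 in each of the 4 tdT-positive (red) and 4 tdT-negative (dark) libraries with the deposited gene lengths, in order of the mean; orange bars give the mean over 8 libraries with merged GENCODE exon lengths. Cd14 lies above all others in every library, Tlr9 below all others, and the orange bars depart most from the points for Ly96, Tlr6, Tlr4 and Tlr8.

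Ratios between partners within a library, which do not depend on scaling, were taken per length (RPKM over RPKM, deposited lengths) and compared for 5 pairs with exact two-sided permutation tests. The length used sets the size of a ratio but not its difference between the groups. Cd14 over Tlr4 was 79.2, 82.9, 70.8 and 110 in the tdT-positive libraries of numbers 1 to 4, against 107, 123, 79.8 and 112 in tdT-negative replicates 1 to 4. It was lower in the tdT-positive library of each number, with a mean log2 difference of -0.30 (exact permutation p = 0.200, adjusted p = 0.5 over the 5 ratios). Tlr6 over Tlr2 was 0.477, 0.373, 0.224 and 0.314 in the tdT-positive libraries of numbers 1 to 4, against 0.323, 0.295, 0.161 and 0.201 in tdT-negative replicates 1 to 4. It was higher in each number, with a mean log2 difference of 0.50 (exact permutation p = 0.171, adjusted p = 0.5). Tlr1 over Tlr2 was also higher in each number, by a mean of 0.32 (exact permutation p = 0.571, adjusted p = 0.657), which was 0.04 without tdT-negative replicate 3, 0.06 without tdT-positive replicate 1 and 0.65 without tdT-positive replicate 3. An exact sign-flip test over the 4 numbers gave the smallest p that 4 pairs allow for each of these 3 ratios, with an adjusted p of 0.208. Ly96 over Tlr4 and Tlr7 over Tlr9 differed by -0.09 and -0.23 (exact permutation p = 0.657 and p = 0.600, adjusted p = 0.657 for both).

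Of the Toll-like receptors of the mouse outside this group, Tlr8 was abundant and the rest were near the floor. Tlr8, a further endosomal RNA receptor gene next to Tlr7 on chromosome X, had 306, 264, 172 and 184 CPM in tdT-positive replicates 1 to 4, against 337, 245, 191 and 146 CPM in tdT-negative replicates 1 to 4. Its log2 fold change was 0.01 (SE 0.28, adjusted p = 0.989, edgeR), or 0.04 with the block, with a blocked interval from 0.882-fold to 1.20-fold. Tlr5, Tlr11 and Tlr12 had at most 4, 8 and 3 counts in any library and were not tested (3 counts equal 0.0490 to 0.0696 CPM, by library).

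Genes that act with the receptors were examined in 7 lists holding 79 genes, 72 of which could be tested. Without the block none passed (edgeR, adjusted p under 0.05), and 2 had an unadjusted p under 0.05. With the block 1 rose and 1 fell, 2.78% of those tested beside 15.8% of all genes. Both are in the list of brakes on signalling. Il1rl1, which encodes the interleukin-33 receptor, averaged 0.0932 ± 0.00523 CPM in tdT-positive libraries, against 1.95 ± 1.15 CPM in tdT-negative libraries (SD, n = 4 each) and fell by 4.21 on the log2 scale with the block (SE 0.37, adjusted p = 0.00455, edgeR; adjusted p = 0.0562 without it). At under 0.1 CPM in each tdT-positive library it passed the filter on low counts only through the tdT-negative libraries, so its groups had to differ and its values are given as a description. Rnf216, which encodes a ubiquitin ligase that acts on Toll-like receptors, averaged 47.4 ± 1.58 CPM in tdT-positive libraries, against 40.4 ± 2.99 CPM in tdT-negative libraries, and rose by 0.23 with the block (SE 0.06, adjusted p = 0.0431; adjusted p = 0.186 without it).

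In the other 6 lists no gene passed with or without the block, and the blocked medians lay between -0.01 and 0.10. Of 10 LPS accessory and sensor genes tested, Msr1, a scavenger receptor gene, was the most abundant per length, at 2234 ± 279 CPM in tdT-positive libraries, against 2051 ± 542 CPM in tdT-negative libraries. Cd180 and Ly86, which encode a receptor and its partner related to Tlr4 and MD-2, averaged 95.1 and 85.7 CPM in tdT-positive libraries, against 98.3 and 86.1 CPM in tdT-negative libraries, with blocked log2 fold changes of -0.01 and 0.02. Casp4, the cytosolic sensor of LPS in mice, averaged 114 ± 21.0 CPM in tdT-positive libraries, against 110 ± 21.1 CPM in tdT-negative libraries.

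Among 12 genes for chaperones and trafficking, Slc15a3, an endolysosomal transporter gene, was the most abundant per length, at 1922 ± 214 CPM in tdT-positive libraries, against 1647 ± 323 CPM in tdT-negative libraries (blocked log2 fold change 0.24, adjusted p = 0.139, edgeR). Unc93b1, which carries the endosomal receptors out of the endoplasmic reticulum, averaged 639 ± 89.3 CPM in tdT-positive libraries, against 597 ± 120 CPM in tdT-negative libraries, with a blocked log2 fold change of 0.11 (SE 0.08, adjusted p = 0.385). Of 9 endolysosomal proteases and nucleases, 15 adaptors and proximal kinases and 13 other pattern receptors tested, the most abundant per length were Ctsb, Pik3ap1 and Clec4e, with blocked log2 fold changes of 0.08, 0.06 and -0.14. Myd88, the adaptor of nearly all Toll-like receptors, averaged 203 ± 35.4 CPM in tdT-positive libraries, against 214 ± 55.8 CPM in tdT-negative libraries, and Ptpn6, the most abundant of 12 brakes per length by the mean of all 8 libraries, 374 ± 68.1 CPM in tdT-positive libraries, against 417 ± 112 CPM in tdT-negative libraries. Cd180, Ly86, Casp4, Unc93b1 and Myd88 were named after their values were seen.

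**Figure D5:**
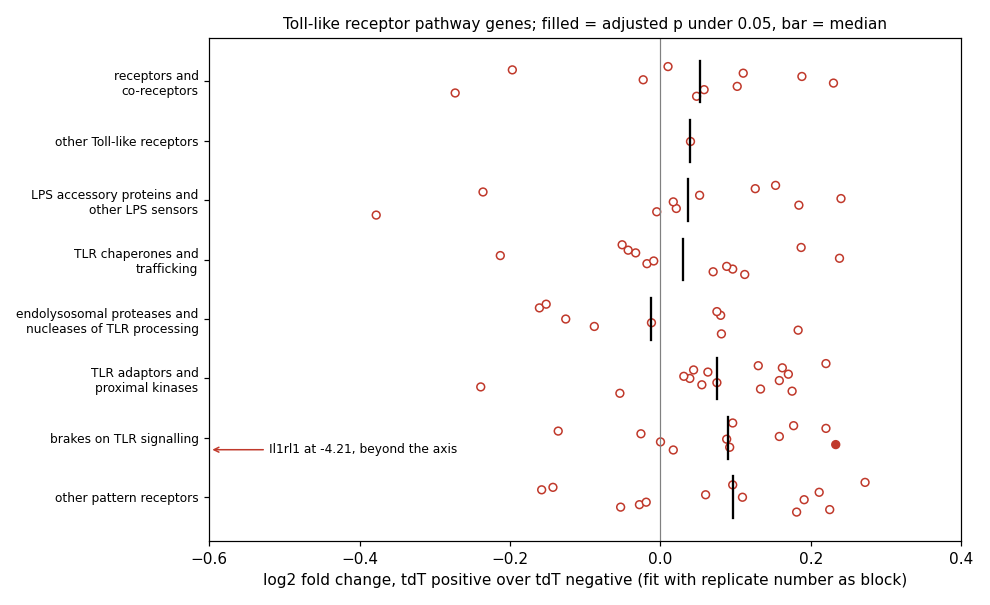
Log2 fold change of tdT-positive over tdT-negative libraries in the blocked fit (horizontal axis) for the 10 receptor and co-receptor genes and the tested genes of 7 lists of their partners; filled points passed an adjusted p of 0.05 and bars are medians. The 2 filled genes are Rnf216, at 0.23, and Il1rl1, at -4.21 beyond the axis.

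Over the 8 libraries, the genes whose log2 CPM tracked Tlr4 most closely were Cebpg, Tdp2 and Zfp523, with Pearson's r of 0.965, 0.962 and 0.960, out of 9186 genes whose log2 CPM averaged 2 or more. Those closest to Cd14 were Thap1, Fdx1 and Pdap1, with r of 0.961, 0.937 and 0.933. The 8 points are 4 pairs of libraries that vary together by number. These values mix shared variation between numbers with any difference between the groups, and they are given without a test. Cebpg averaged 48.2 ± 7.64 CPM in tdT-positive libraries, against 46.6 ± 8.87 CPM in tdT-negative libraries, and Thap1 5.40 ± 0.554 CPM in tdT-positive libraries, against 5.68 ± 0.323 CPM in tdT-negative libraries.

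The libraries held between 49850537 and 58516454 counts. All 8 macrophage markers were tested, with Lyz2 the most abundant at 5663 ± 647 CPM in tdT-positive libraries, against 6210 ± 2536 CPM in tdT-negative libraries, and with the block none fell. Markers of other cells moved with the groups in the blocked fit, where 7.81% of all genes fell, whereas without the block 1 monocyte gene passed and no gene of the other marker lists did. With the block 9 of 10 stromal, 4 of 8 osteoclast, 4 of 8 monocyte, 2 of 3 tested conventional dendritic and 1 of 2 tested B-cell genes fell, and of 7 tested neutrophil genes 4 fell and 2 rose. Some of the genes that fell passed the filter on low counts only through the tdT-negative libraries. Their groups had to differ, so their falls are a description. Among them were Ebf1 (B cells), with at most 0.138 CPM in any tdT-positive library, and Prtn3 (neutrophils), with 0 CPM in each. Ltf (neutrophils), with 0 CPM in tdT-positive replicates 1 and 3, was another. So were S100a9, at 0.162 CPM in tdT-positive replicate 3, and Ngp, at 0.0384 CPM in tdT-positive replicate 1. With these, the limit covers every neutrophil gene that fell. It also covers Chil3 (monocytes), at 0.0192 CPM in tdT-positive replicate 1, and Atp6v0d2 (osteoclasts), at 0.139 CPM in tdT-positive replicate 3. Summed over each list, stromal, osteoclast and monocyte levels were 62.6 to 155, 128 to 327 and 121 to 321 CPM in tdT-positive libraries, against 261 to 2366, 109 to 2860 and 236 to 610 CPM in tdT-negative libraries. The upper ends of the tdT-negative stromal and osteoclast ranges were those of replicate 4 alone. The osteoclast gene Acp5 had 874 CPM there, 67.5 to 119 CPM in tdT-negative replicates 1 to 3 and 50.7 to 98.1 CPM in tdT-positive libraries. The stromal gene Col1a1 had 857, 79.1 to 186 and 17.1 to 53.6 CPM in the same order. The neutrophil sum was 471 to 763 CPM in tdT-positive libraries, against 157 to 830 CPM in tdT-negative libraries. In tdT-positive libraries most of it was S100a8 and Csf3r, the genes that rose. S100a9 had 0.162 to 1.585 CPM there, against 7.55 to 166 CPM in tdT-negative libraries. The conventional dendritic sum was 5.54 to 10.1 CPM in tdT-positive libraries, against 20.4 to 34.1 CPM in tdT-negative libraries, most of it Fscn1. The dendritic markers Flt3 and Xcr1 had 11 and 49 counts in all over the 8 libraries. Clec9a, with 52 counts in all and not tested, was higher in the tdT-positive library of each number. Of 6 tested plasmacytoid dendritic markers, 2 rose, Tcf4 and Irf8, and none fell, with a sum of 948 to 1141 CPM in tdT-positive libraries, against 837 to 1318 CPM in tdT-negative libraries, most of it Bst2. The B-cell sum was 0.580 to 0.921 CPM in tdT-positive libraries, against 1.42 to 2.31 CPM in tdT-negative libraries. The defining markers Siglech (plasmacytoid dendritic cells) and Cd79a (B cells) had 10 and 2 counts in all over the 8 libraries. Mast-cell and T and NK-cell lists, with 1 tested gene each, had none that passed and sums of 0.940 to 2.55 and 0.696 to 1.05 CPM in tdT-positive libraries, against 0.875 to 5.17 and 0.420 to 0.596 CPM in tdT-negative libraries. By the mean of all 8 libraries, the most abundant markers per length of these lists were S100a8 (neutrophils), S100a4 (monocytes), Col1a1 (stroma), Acp5 (osteoclasts), Fscn1 (conventional dendritic cells), Bst2 (plasmacytoid dendritic cells), Cd79b (B cells), Gata2 (mast cells and basophils) and Cd4 (T and NK cells). The part of these cells in the values of the receptor genes was not tested. Tcf4, Irf8, Siglech, Cd79a, Ebf1, Prtn3, Ltf, S100a9, Ngp, Csf3r, Chil3, Atp6v0d2, Flt3, Xcr1 and Clec9a were named after their values were seen.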

How the data were processed

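The authors deposited 1 table of whole-number counts per gene for 8 libraries of polyadenylated RNA (220 ng of total RNA, stranded mRNA kit, per the labels' protocols), with Entrez identifiers, symbols and gene lengths. The submitters' processing notes name STAR and mm10; counting tool and annotation were not given in the sources used here, nor was the use of strand. Each column name stands in the description of exactly 1 sample, and groups come from the titles. Libraries of a group were no repeats of each other (chi-square per degree of freedom 54.0 to 759).

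Genes kept by edgeR's default filter (minimum count 10, minimum total 15), 12610 in all, were scaled by TMM (factors 0.865 to 1.155) and tested with the quasi-likelihood test of edgeR 4.0.16, tdT positive over tdT negative, with Benjamini-Hochberg adjustment over all of them. Standard errors are the unshrunken coefficient over the root of F, and 95% intervals use its t quantile. The fits were also run on simulated counts, and the coverage of the intervals found there is not given here. RPKM uses the deposited lengths. Same-numbered libraries of the 2 groups deviated together (correlation of deviations from group means 0.80, 0.56, 0.72 and 0.64 for numbers 1 to 4, each the best match), so blocked values are given too. The labels call the libraries biological replicates without saying whether they come from separate mice or cultures, and the p-values reflect the spread of these samples.

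Alternatives were other scalings, filters and thresholds, the block, limma 3.58.1 voom, DESeq2 1.42.0 and leaving out libraries. The 10 genes, the lists of their partners and of cell markers, and the naming rule were chosen with earlier results of these data known. The text names all 10 genes, up to 4 genes of a list that passed, the most abundant of each list, and the 3 genes closest in pattern to Tlr4 and to Cd14. Sequences and coordinates come from GENCODE vM21 (GRCm38) and RefSeq (GRCm38.p6). Some marker genes are not reported here.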

Additional observations from a re-analysis of the deposited data

Results flagged for a closer look

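Of 20 groups of 4 libraries examined, 10 genes in each of 2 groups, 2 held a library far from the others, and chance alone sets apart about 1 in 20. Tlr2 had 308.5 CPM in tdT-negative replicate 3, with the gap to the next library taking 0.885 of the group's range. Tlr13 had 122.5 CPM in the same library, with a gap of 0.873 of the range. tdT-positive replicate 3 was likewise the highest of its group for Tlr2, at 257 CPM, and the lowest for Tlr13, at 131 CPM.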

How the results depend on the processing

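In the settings tried without pairing, none of the 10 genes passed. The replicate block, which pairs libraries by number, left that count at 0 but called 1998 genes in all and 2 partner genes. With the block, 2 of the 10 passed under library totals (Tlr2 -0.351, Cd14 -0.275) and under the DESeq2 Wald test (Tlr2 -0.278, Cd14 -0.202), and 1, Tlr2, under upper-quartile factors (-0.308), at an adjusted p under 0.1, and without number 4 (-0.321); the cause was not tested.

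Without the block, all-gene counts were 921 with DESeq2, 216 with no filter and 524 at an adjusted p under 0.1, each with 1 partner gene; leaving out 1 library gave 2 to 456 and 0 to 1, with 456 without tdT-negative replicate 1 and 225 without tdT-negative replicate 4. With the block they were 1418 (totals), 1990 (DESeq2 size factors), 1989 (upper quartiles), 2144 (voom), 2504 (DESeq2), 3182 (adjusted p under 0.1) and 2005 (Rn45s and Lars2 left out), with 2, 2, 1, 2, 8, 6 and 2 partner genes. Blocked fits without numbers 1 to 4 in turn called 1023, 347, 355 and 2535 genes, with 1, 1, 1 and 2 partner genes.

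Log2 fold changes near 0 changed sign. Library totals gave -0.028 for Tlr1 and -0.002 for Tlr4, and with the block -0.03 for Tlr1 and -0.019 for Tlr3; upper quartiles gave -0.007 for Tlr1. Ly96 was 0.01 with the block, 0.011 with voom, and with the block 0.005 (DESeq2 size factors), 0.008 (voom), 0.005 (DESeq2) and 0.009 (Rn45s and Lars2 left out).

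Leaving out 1 library at a time, the log2 fold change ranged from -0.128 to 0.181 for Tlr1, -0.541 to 0.026 for Tlr2, -0.191 to 0.347 for Tlr3, -0.024 to 0.249 for Tlr4, -0.184 to 0.132 for Tlr7, -0.135 to 0.526 for Tlr9 and -0.144 to 0.088 for Ly96. The log2 ratio ranged from -0.262 to 0.016 for Ly96 over Tlr4, -0.407 to 0.045 for Tlr7 over Tlr9, 0.043 to 0.652 for Tlr1 over Tlr2, 0.322 to 0.696 for Tlr6 over Tlr2 and -0.427 to -0.214 for Cd14 over Tlr4. Leaving out 1 number at a time with the block, Tlr1 ranged from -0.056 to 0.112, Tlr9 from 0.049 to 0.348, Tlr7 from -0.095 to 0.045 (0.012 without number 3) and Ly96 from -0.093 to 0.092 (0.011 without number 1 and 0.032 without number 2).
Tlr6, Tlr13 and Cd14 kept their sign in all 27 alternatives but not their size, from 0.108 to 0.299, 0.021 to 0.214 and -0.313 to -0.112. Library totals moved the median of all genes by -0.08 on the log2 scale. Tlr9 had the fewest counts of the 10 genes, 120 to 411 a library.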
